A study of Homo sapiens with 6 samples.

Results

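Amino acid supply and tRNA charging in C4-2B cells were described through 39 genes, chosen by symbol: 20 aminoacyl-tRNA synthetases, 9 enzymes that make or interconvert amino acids and one-carbon units, and 10 amino acid transporters. All 39 were listed, and all 39 reached a value of 1 or more in at least 1 library of each experiment, among 12153, 12621 and 19280 genes that did so in the SR2211, XY011 and ENZ tables, which list 17602, 16293 and 22738 lines. C4-2B is an established line of human prostate cancer cells, a descendant of LNCaP that spreads to bone. RNA was sequenced from 6 libraries in 3 experiments. In each, cells treated for 48 h were set against a vehicle library of the same experiment: SR2211, an inverse agonist of the nuclear receptor ROR-γ, at 5 µM against its vehicle; XY011, known here by its code name, at 5 µM against its vehicle; and ENZ (enzalutamide, also MDV3100, an androgen receptor antagonist) at 20 µM against its vehicle. All 6 cultures were in RPMI with 9% charcoal-stripped and 1% regular serum, glutamine and antibiotics, and all came from 1 cell line. The extraction notes of the first 2 experiments name another code, XY018, where the titles and treatment notes have XY011, and those of the ENZ pair name SR2211, so the groups were taken from the titles.

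Every group was 1 library, so no difference below has a replicate check and none has a p-value. A gene was called higher or lower when log2 of (treated + 1)/(vehicle + 1), the log2 change used throughout, was 1 or more or -1 or less. The scale understates the change of genes near 1. Levels are RPKM (reads scaled for gene length and mapped reads) in the SR2211 experiment and FPKM (the same for fragments) in the other 2. A library's values are shares of its RNA, and in a culture fewer cells holding a transcript and less of it per cell cannot be told apart.

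All 9 luminal prostate markers checked were measured in every experiment (KLK3 at 212 RPKM with SR2211 and 1357 RPKM with vehicle), as the label of a prostate line requires. Of 10 markers of immune, endothelial, stromal, liver and basal cells, 2, 2 and 5 were measured in the SR2211, XY011 and ENZ experiments. Their summed levels were 5.92 RPKM with SR2211 and 5.03 RPKM with its vehicle, 4.25 FPKM with XY011 and 5.02 FPKM with its vehicle, and 46.7 FPKM with ENZ and 32.6 FPKM with its vehicle. COL1A1, a collagen gene of stromal cells, was the largest of these with ENZ, at 34.8 FPKM against 14.1 FPKM with vehicle. The others did not all follow it: of the 5 measured with ENZ, 2 had a positive and 3 a negative change, with a median of -0.43. The part of these cells in the results was not tested. Mapped depth, worked out from whole-read steps in the values, was 8163382 reads for SR2211 and 8200243 for its vehicle. The depth of the other 4 libraries is not known.

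Aminoacyl-tRNA synthetases join each amino acid to its tRNA, which then carries it to the ribosome. When amino acids run short, uncharged tRNA activates the kinase GCN2, which phosphorylates the initiation factor eIF2α. Stress in the endoplasmic reticulum does the same through PERK. General translation then slows, while the mRNA of the transcription factor ATF4 is translated better. ATF4, with partners of the C/EBP family, is known to switch on synthetase, amino acid synthesis and transporter genes through a composite DNA element. Prostate luminal cells depend on the androgen receptor, and the transporter gene SLC43A1 is a known androgen-regulated gene in this lineage.

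With SR2211, 18 of the 39 genes were called higher and 0 lower, where 5.10% of all measured genes were called higher and 5.75% lower. With XY011, 15 were called higher and 3 lower, where the shares over all genes were 7.58% and 13.2%. With ENZ, 1 was called higher and 1 lower, where the shares were 3.68% and 4.68%. With both compounds at 5 µM, 14 genes were called higher, where 3.25% of 11635 genes measured in both experiments were. These were the synthetase genes AARS, CARS, EPRS, GARS, SARS and YARS, the enzyme genes ASNS, PSAT1, PHGDH, MTHFD2 and CTH, and the transporter genes SLC7A11, SLC3A2 and SLC6A9. ASNS was the 1 gene called higher in all 3 experiments. No member was called in opposite directions in any pair of experiments.

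The median log2 change of the 39 genes was 0.95 with SR2211, 0.70 with XY011 and 0.18 with ENZ, and over all measured genes it was -0.07, -0.14 and -0.02. The change was positive for 30, 28 and 28 members. It was positive in all 3 experiments for 26, and negative in all 3 for 8: DARS, FARSA, FARSB, HARS, KARS, QARS, RARS and SLC43A1. Of these 8, KARS and QARS turn positive with XY011 when the median gene is set to 0 or the pair is quantile scaled, and QARS with SR2211 under quantile scaling. Over all genes XY011 gave 957 calls higher and 1663 lower, 1270 and 1216 after the median gene was set to 0, and 1234 and 1263 after quantile scaling. Under that centring the 39 genes gave 17 calls higher and 3 lower with XY011.

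**Figure D1:**
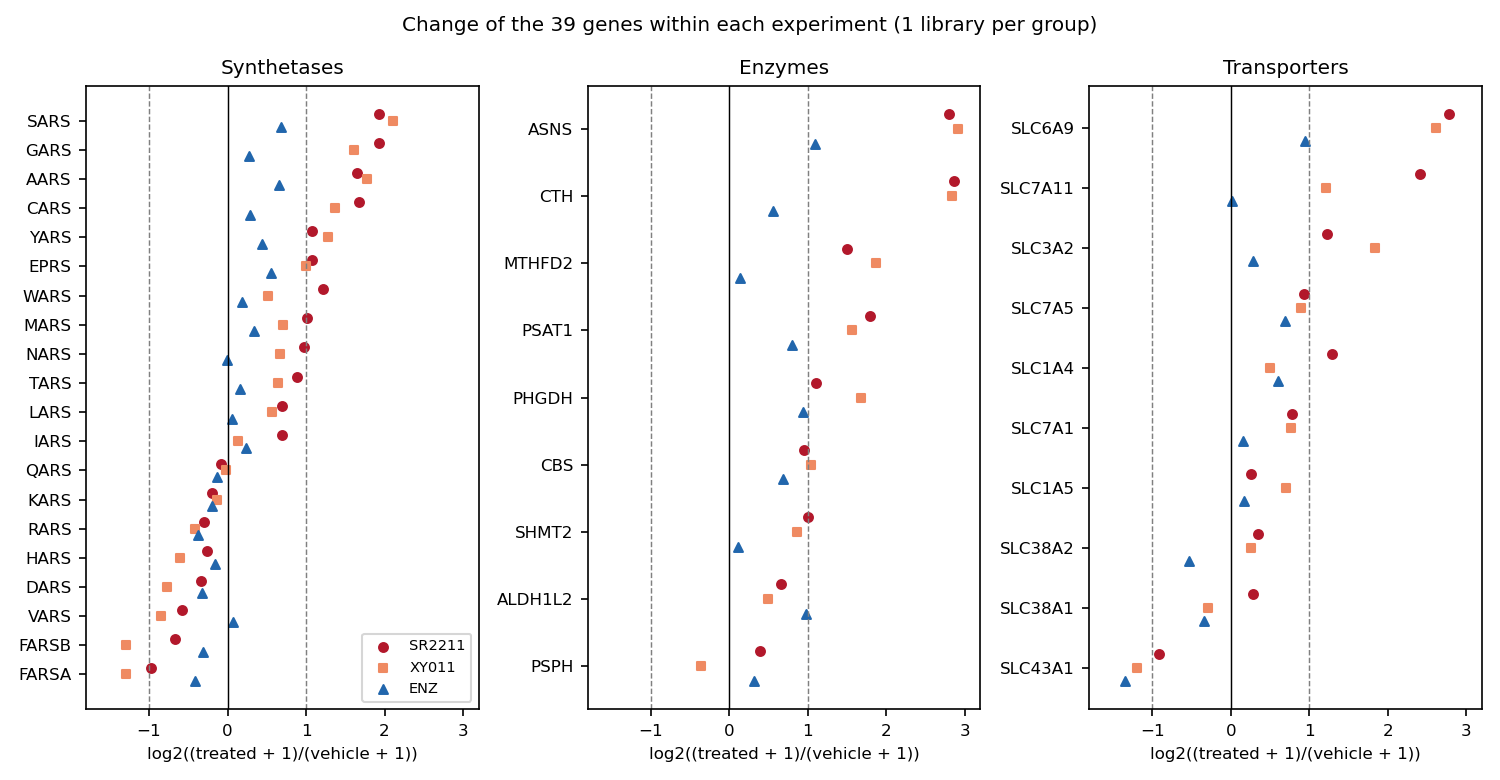
Log2 change, log2 of (treated + 1)/(vehicle + 1), of each of the 39 genes in the SR2211, XY011 and ENZ experiments, each point 1 treated library against its vehicle library, ordered within synthetases, enzymes and transporters. Dashed lines mark the threshold of 1 in either direction: 18, 15 and 1 genes lie at or beyond it on the higher side, and CTH, ASNS and SLC6A9 lie farthest out with both SR2211 and XY011.

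Promoter letters are shown because many members moved together. RefSeq promoters (GRCh38.p14, 250 bases before to 50 bases after the gene start) were at hand for 31 of the 39 genes. They were searched on both strands for TGATGNAA, the form of the C/EBP-ATF composite element in which N is any base. It was found in 10 of 31 member promoters (32.3%), in 1003 of 27305 promoters of the whole table (3.67%), and in 162 of 9800 promoters of genes measured in the SR2211 experiment (1.65%). Among members it was in 4 of 12 (33.3%) called higher with both SR2211 and XY011, and in 6 of 19 (31.6%) of the others. A match is a run of letters and not a site of binding. The matches of 7 of the 10 genes are shown with 3 flanking bases on either side, 5′ to 3′ on the strand that holds the motif, with the motif in capitals.
CARS: atcTGATGCAAccg
IARS: aggTGATGCAAcgc
MARS: cgcTGATGCAAccg
NARS: ctcTGATGCAAcgc
TARS: agcTGATGCAAtcg
SLC7A1: tgcTGATGAAAcct
SLC38A1: gaaTGATGAAAagg

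The motif was in 6 of 16 synthetase promoters searched. Of the matches shown, those in synthetase genes read TGATGCAA, and those in SLC7A1 and SLC38A1 hold an A at the free base. The mean change over SR2211 and XY011 was positive for 9 of the 10 genes with the motif and for 14 of the 21 without it. The exception with the motif was SLC38A1, at a mean of -0.01. The letters were therefore present in genes called higher with both compounds, such as CARS, and in genes called with neither, such as IARS and TARS. Any part of the motif in these changes was not tested.

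Among the 20 synthetase genes, 8 were called higher and 0 lower with SR2211, 6 higher and 2 lower with XY011, and none in either direction with ENZ. Their summed level was 2648 RPKM with SR2211 and 1531 RPKM with vehicle, 2676 FPKM with XY011 and 1660 FPKM with vehicle, and 3239 FPKM with ENZ and 2859 FPKM with vehicle. The synthetases did not move as a block: in every experiment 12 had a positive and 8 a negative change, and their median change was 0.79 with SR2211, 0.55 with XY011 and 0.11 with ENZ. SARS, GARS, AARS and CARS stood at the top with both compounds.

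SARS charges serine tRNA. Its level was 213 RPKM with SR2211 and 55.1 RPKM with vehicle, 445 FPKM with XY011 and 102 FPKM with vehicle, and 210.3 FPKM with ENZ and 131 FPKM with vehicle. The log2 change was 1.94, 2.11 and 0.68, the largest of any synthetase with each of the 3 agents. In whole reads this was 5563 with SR2211 and 1442 with vehicle, a ratio of 3.88 with an exact 95% interval of 3.66 to 4.11. These intervals, given below for the SR2211 pair alone, cover counting error and not differences between cultures.

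GARS, the glycine enzyme, stood at 402 RPKM with SR2211 and 105 RPKM with vehicle, at 342 FPKM with XY011 and 111 FPKM with vehicle, and at 238 FPKM with ENZ and 197 FPKM with vehicle. Its log2 change was 1.93 with SR2211, 1.62 with XY011 and 0.27 with ENZ, and its read ratio was 3.83 (3.66 to 4.005). AARS, the alanine enzyme, stood at 332 RPKM with SR2211 and 105 RPKM with vehicle, at 360.1 FPKM with XY011 and 104 FPKM with vehicle, and at 266 FPKM with ENZ and 169 FPKM with vehicle. Its changes were 1.65, 1.78 and 0.65, so that under ENZ the value for AARS was above that for GARS. CARS, the cysteine enzyme, stood at 69.0 RPKM with SR2211 and 20.9 RPKM with vehicle, at 65.9 FPKM with XY011 and 24.9 FPKM with vehicle, and at 62.7 FPKM with ENZ and 51.4 FPKM with vehicle. Its changes were 1.68, 1.37 and 0.28, so that its vehicle level, the lowest of these 4 synthetases in each experiment, was raised to a level still below theirs.

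YARS, the tyrosine enzyme, was called higher with both compounds, at 128 RPKM with SR2211 and 60.4 RPKM with vehicle and at 168 FPKM with XY011 and 68.2 FPKM with vehicle. With ENZ it stood at 166 FPKM and with vehicle at 122 FPKM, and the 3 changes were 1.07, 1.29 and 0.43. EPRS, which charges both glutamate and proline tRNA, stood at 184 RPKM with SR2211 and 86.9 RPKM with vehicle, at 142 FPKM with XY011 and 70.5 FPKM with vehicle, and at 114 FPKM with ENZ and 77.2 FPKM with vehicle. Its changes of 1.07 and 1.01 with SR2211 and XY011 lay just past the threshold, and it was at 0.55 with ENZ. WARS, the tryptophan enzyme, stood at 119 RPKM with SR2211 and 50.4 RPKM with vehicle, at 96.1 FPKM with XY011 and 66.7 FPKM with vehicle, and at 91.5 FPKM with ENZ and 80.6 FPKM with vehicle. It was called with SR2211 (1.22) and not with XY011 (0.52) or ENZ (0.18). MARS, the methionine enzyme, stood at 141 RPKM with SR2211 and 69.3 RPKM with vehicle, at 116 FPKM with XY011 and 70.3 FPKM with vehicle, and at 704 FPKM with ENZ and 557 FPKM with vehicle. It likewise passed with SR2211 (1.01), at the very edge, and had 0.71 with XY011 and 0.34 with ENZ.

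FARSA and FARSB encode the α and β subunits of the phenylalanine enzyme, the one cytosolic synthetase built from 2 different chains. FARSA stood at 58.2 RPKM with SR2211 and 115 RPKM with vehicle, at 49.5 FPKM with XY011 and 123 FPKM with vehicle, and at 134 FPKM with ENZ and 179.7 FPKM with vehicle. FARSB stood at 53.8 RPKM with SR2211 and 86.5 RPKM with vehicle, at 37.4 FPKM with XY011 and 92.8 FPKM with vehicle, and at 33.3 FPKM with ENZ and 41.7 FPKM with vehicle. Both subunits were called lower with XY011 (-1.30 and -1.29), the only 2 synthetases that were, and both were negative with SR2211 (-0.97 and -0.68) and ENZ (-0.42 and -0.32). The FARSA reads were 881 with SR2211 and 1754 with vehicle, a ratio of 0.505 (0.465 to 0.547).

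The other 10 synthetases passed in no experiment. NARS (asparagine), TARS (threonine), IARS (isoleucine) and LARS (leucine) had positive changes of 0.98, 0.88, 0.69 and 0.69 with SR2211 and of 0.67, 0.64, 0.14 and 0.57 with XY011. HARS (histidine), DARS (aspartate), RARS (arginine), KARS (lysine), QARS (glutamine) and VARS (valine) were negative with both, between -0.59 for VARS and -0.08 for QARS with SR2211 and between -0.85 for VARS and -0.02 for QARS with XY011. QARS was the steadiest, at 57.7 RPKM with SR2211 and 61.0 RPKM with vehicle and at 70.2 FPKM with XY011 and 71.4 FPKM with vehicle. Its read ratio of 0.946 had an interval of 0.877 to 1.02, the 1 interval of the 39 that included 1.

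Of the cytosolic synthetases, 8 (EPRS, IARS, LARS, MARS, QARS, RARS, KARS and DARS) sit in the multi-synthetase complex, and 12 of the genes encode enzymes outside it. Of the 8, 2 were called higher with SR2211 and 1 with XY011, with medians of 0.31 and 0.06. Of the 12, 6 were called higher with SR2211, and 5 higher and 2 lower with XY011, with medians of 1.03 and 0.65. With ENZ the medians were -0.04 for the complex and 0.17 outside it, and the first becomes 0.02 under quantile scaling. The 3 scaffold genes of the complex, AIMP1, AIMP2 and EEF1E1, were called in no experiment. Their changes with SR2211 were -0.23, 0.34 and -0.81, and with XY011 -0.18, 0.41 and -0.76. By catalytic fold, 5 of the 10 class I and 3 of the 10 class II genes were called higher with SR2211, and 3 and 3 with XY011. EPRS, which charges both glutamate and proline tRNA, was counted in class I alone. With XY011, 0 class I and 2 class II genes were called lower. The class I and class II medians were 0.85 and 0.34 with SR2211, and 0.55 and 0.25 with XY011.

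The 17 separate genes for mitochondrial synthetases, which charge tRNA inside that organelle, gave 0 calls higher in any experiment. Over all measured genes 5.10% were called higher with SR2211, 7.58% with XY011 and 3.68% with ENZ. The median change of the 17 was -0.22 with SR2211, -0.37 with XY011 and 0.11 with ENZ. With XY011, 5 were called lower, where 13.2% of all measured genes were, and 3 after centring or quantile scaling. LARS2, MARS2 and CARS2 had the largest changes. LARS2 stood at 5.19 FPKM with XY011 and 15.7 FPKM with vehicle (-1.43), MARS2 at 3.61 FPKM with XY011 and 11.4 FPKM with vehicle (-1.43), and CARS2 at 7.88 FPKM with XY011 and 18.96 FPKM with vehicle (-1.17). With SR2211, LARS2 and MARS2 were lowest too, both at -0.94. CARS2 was the 1 mitochondrial gene called with ENZ, at 38.1 FPKM with ENZ and 87.3 FPKM with vehicle (-1.18). Over all measured genes 4.68% were called lower with ENZ.

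**Figure D2:**
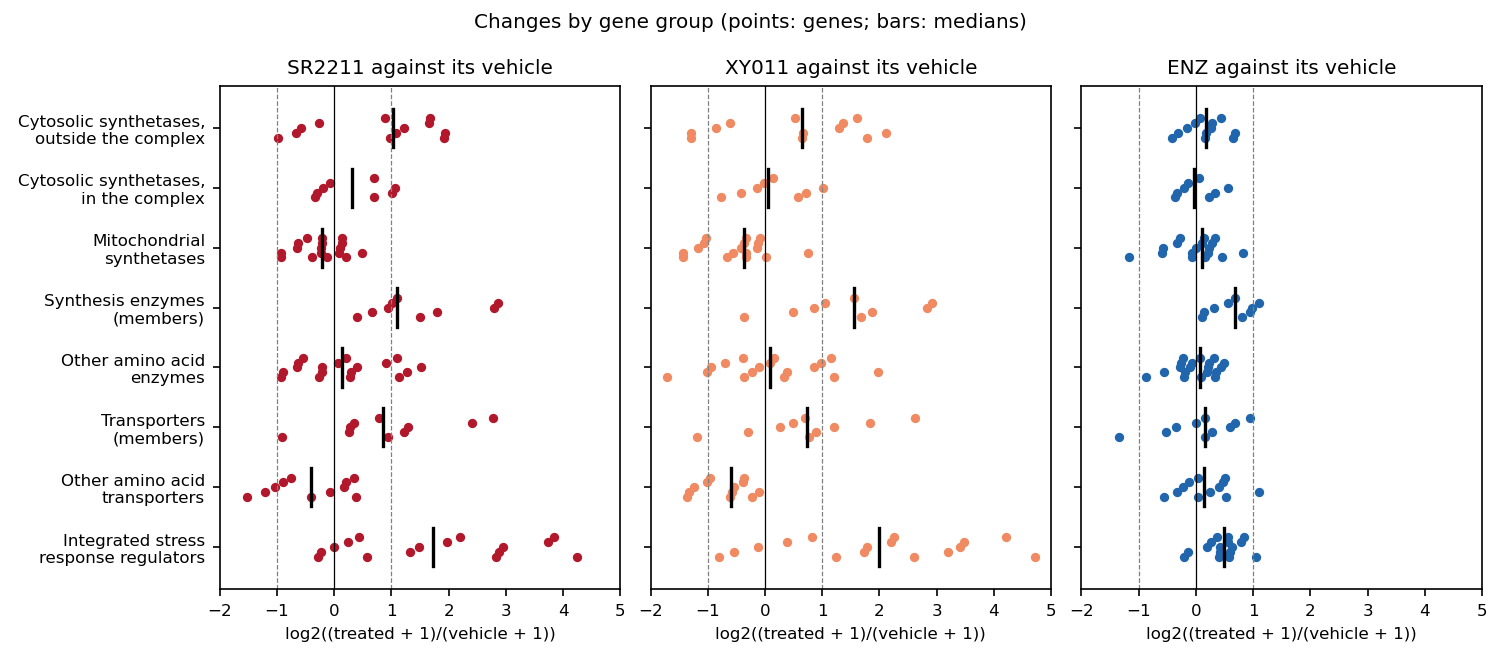
Log2 change of every measured gene of 8 groups, 1 panel per experiment, with 1 point per gene, a bar at each group's median and dashed lines at the threshold of 1 in either direction. With SR2211 the medians are 1.03 for synthetases outside the complex, 0.31 for those in it and -0.22 for the mitochondrial ones. No mitochondrial synthetase reaches 1 in any panel, where 5.10%, 7.58% and 3.68% of all measured genes do with SR2211, XY011 and ENZ.

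Of the 9 enzyme genes, 6 were called higher with SR2211, 6 with XY011 and 1 with ENZ, and 0 were called lower in any experiment. Their summed level was 1695 RPKM with SR2211 and 604 RPKM with vehicle, 1741 FPKM with XY011 and 535 FPKM with vehicle, and 1899 FPKM with ENZ and 1255 FPKM with vehicle. Their median change was the highest of the 3 roles in each experiment, at 1.10, 1.56 and 0.68.

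ASNS encodes asparagine synthetase, which makes asparagine from aspartate and glutamine. Its level was 339.6 RPKM with SR2211 and 48.1 RPKM with vehicle, 507 FPKM with XY011 and 66.0 FPKM with vehicle, and 316 FPKM with ENZ and 147 FPKM with vehicle. The treated value was above the vehicle value in all 3 pairs, with changes of 2.80, 2.92 and 1.10. The reads were 6549 with SR2211 and 931 with vehicle, a ratio of 7.07 (6.60 to 7.58).

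PHGDH, PSAT1 and PSPH carry out the steps of serine synthesis from the glycolytic intermediate 3-phosphoglycerate, in that order. PHGDH, the entry step, stood at 337 RPKM with SR2211 and 156 RPKM with vehicle, at 394 FPKM with XY011 and 122 FPKM with vehicle, and at 481 FPKM with ENZ and 249 FPKM with vehicle. Its changes were 1.10, 1.68 and 0.95, so that with ENZ it lay just short of the threshold. PSAT1, the aminotransferase of the middle step, stood at 334 RPKM with SR2211 and 95.7 RPKM with vehicle, at 239 FPKM with XY011 and 80.6 FPKM with vehicle, and at 214 FPKM with ENZ and 122 FPKM with vehicle. Its changes were 1.79, 1.56 and 0.80. PSPH, the phosphatase of the last step, stood at 32.8 RPKM with SR2211 and 24.8 RPKM with vehicle, at 21.7 FPKM with XY011 and 28.2 FPKM with vehicle, and at 70.3 FPKM with ENZ and 56.2 FPKM with vehicle. PSPH passed in no experiment (0.39, -0.36 and 0.32), and on the per-length scale it had the lowest level of the 3 steps in every library.

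SHMT2, MTHFD2 and ALDH1L2 belong to the mitochondrial branch of one-carbon metabolism, which takes a carbon unit from serine onto folate. MTHFD2, a dehydrogenase and cyclohydrolase, stood at 184 RPKM with SR2211 and 64.5 RPKM with vehicle, at 196 FPKM with XY011 and 53.2 FPKM with vehicle, and at 133 FPKM with ENZ and 120.5 FPKM with vehicle. Its changes were 1.5, 1.87 and 0.14, past the threshold with SR2211 and XY011 and close to 0 with ENZ. SHMT2, the serine hydroxymethyltransferase that feeds it, stood at 269 RPKM with SR2211 and 133 RPKM with vehicle, at 241 FPKM with XY011 and 132 FPKM with vehicle, and at 444 FPKM with ENZ and 410.0 FPKM with vehicle. It passed with SR2211 by a narrow margin (1.01), and had 0.86 with XY011 and 0.12 with ENZ. ALDH1L2, which oxidises formyl-folate, was the least abundant of all members, at 1.15 RPKM with SR2211 and 0.355 RPKM with vehicle, at 1.06 FPKM with XY011 and 0.46 FPKM with vehicle, and at 1.64 FPKM with ENZ and 0.341 FPKM with vehicle. It was higher in each treated library than in its vehicle library, with changes of 0.67, 0.50 and 0.98 on a scale that holds back a gene this low, and with 71 reads with SR2211 and 22 with vehicle (ratio 3.24, 1.99 to 5.49).

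The cytosolic counterparts are given beside the mitochondrial branch. SHMT1, the cytosolic hydroxymethyltransferase, stood at 23.1 RPKM with SR2211 and 45.0 RPKM with vehicle (-0.93) and at 14.2 FPKM with XY011 and 48.5 FPKM with vehicle (-1.70), which was called lower with XY011 alone, and had -0.28 with ENZ. MTHFD1, the cytosolic trifunctional enzyme, had changes of -0.90 with SR2211, -0.95 with XY011 and -0.18 with ENZ and passed in none. ALDH1L1, the cytosolic relative of ALDH1L2, was under 1 in every library. MTHFD1L, a mitochondrial formyl-folate synthetase, was called higher with SR2211 (1.14) and had 0.97 with XY011.

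CTH and CBS are the enzymes of transsulfuration, which makes cysteine from homocysteine. CTH, cystathionine γ-lyase, which releases the cysteine, stood at 53.1 RPKM with SR2211 and 6.44 RPKM with vehicle, at 41.7 FPKM with XY011 and 4.97 FPKM with vehicle, and at 19.03 FPKM with ENZ and 12.6 FPKM with vehicle. Its changes were 2.86, 2.84 and 0.56, the largest of all 39 genes with SR2211 and second to ASNS with XY011. The reads were 927 with SR2211 and 113 with vehicle, a ratio of 8.24 (6.77 to 10.1). CBS, cystathionine β-synthase, which acts before it, stood at 145 RPKM with SR2211 and 74.6 RPKM with vehicle, at 98.7 FPKM with XY011 and 47.4 FPKM with vehicle, and at 221 FPKM with ENZ and 137 FPKM with vehicle. CBS passed with XY011 (1.04) and was just short with SR2211 (0.95), and had 0.68 with ENZ.

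Of 20 other genes of amino acid metabolism, 18, 17 and 19 were measured. With SR2211, 4 were called higher (BCAT1, GOT1, MTHFD1L and ASS1) and 0 lower, where the shares over all genes were 5.10% and 5.75%. The median was 0.14. With XY011, 3 were called higher (ASS1, BCAT1 and GOT1) and 2 lower (SHMT1 and MTR), where the shares were 7.58% and 13.2%. The median with XY011 was 0.08. With ENZ 0 were called, where 3.68% of all measured genes were called higher and 4.68% lower. After the median gene was set to 0, the XY011 counts were 5 higher and 1 lower, and after quantile scaling 4 and 1. MTR, at -1.01, loses its call under the centring. ASS1, the argininosuccinate synthase of arginine synthesis, stood at 36.8 RPKM with SR2211 and 16.7 RPKM with vehicle and at 87.2 FPKM with XY011 and 21.5 FPKM with vehicle. BCAT1, the cytosolic branched-chain aminotransferase, had changes of 1.51 with SR2211 and 1.21 with XY011, and GOT1, the cytosolic aspartate aminotransferase, of 1.27 and 1.16.

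**Figure D3:**
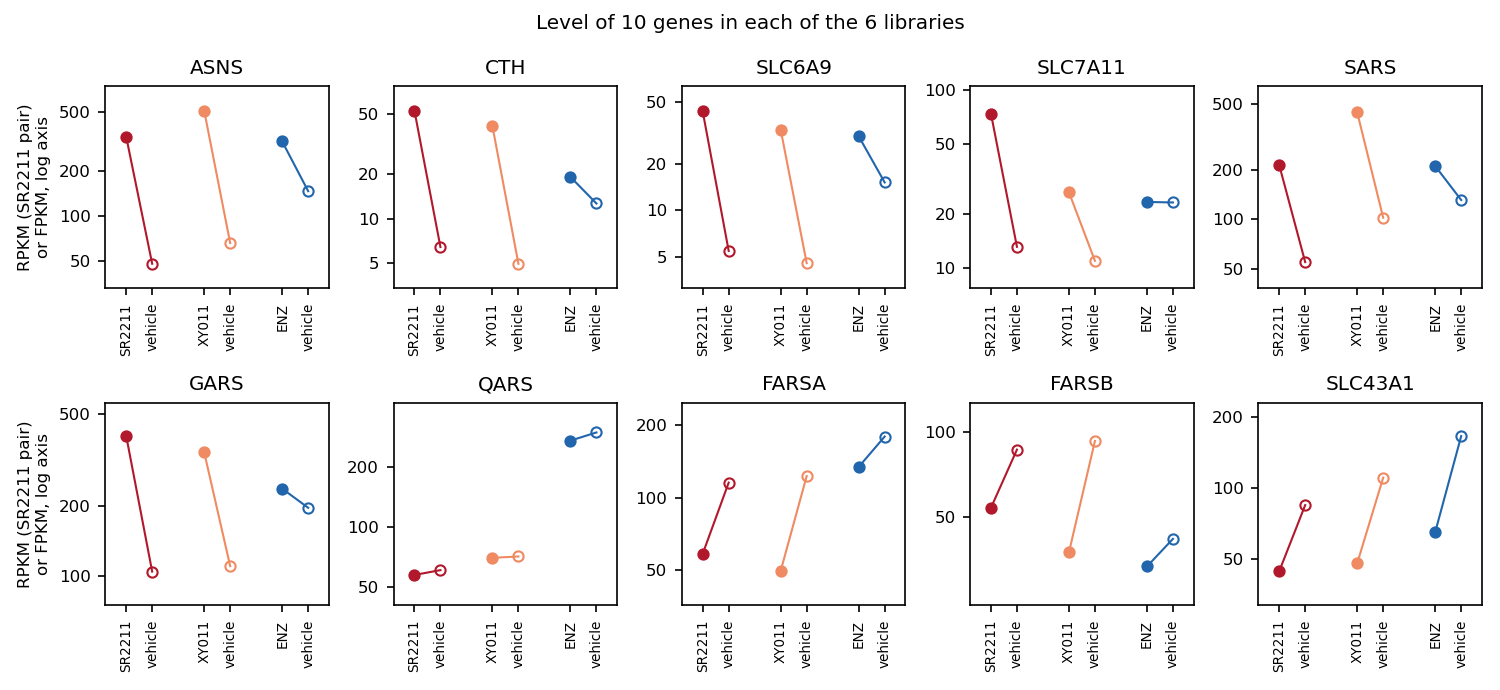
Level of 10 members in all 6 libraries on log axes, in RPKM for the SR2211 pair and FPKM for the others, with each treated library (filled) joined to its vehicle library (open). CTH and SLC6A9 stand at 53.1 and 43.5 RPKM with SR2211, against 6.44 and 5.47 RPKM with vehicle, QARS is nearly level within each pair, and FARSA, FARSB and SLC43A1 are lower in every treated library.

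Of the 10 transporter genes, 4 were called higher and 0 lower with SR2211, 3 higher and 1 lower with XY011, and 0 higher and 1 lower with ENZ. Their summed level was 874 RPKM with SR2211 and 539 RPKM with vehicle, 772 FPKM with XY011 and 492 FPKM with vehicle, and 994 FPKM with ENZ and 983 FPKM with vehicle. The medians were 0.86, 0.73 and 0.16.

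SLC6A9 encodes the glycine transporter GlyT1. Its level was 43.5 RPKM with SR2211 and 5.47 RPKM with vehicle, 33.1 FPKM with XY011 and 4.56 FPKM with vehicle, and 30.0 FPKM with ENZ and 15.1 FPKM with vehicle. Its changes of 2.78, 2.62 and 0.94 were the largest of the transporters with each agent. The reads were 1203 with SR2211 and 152 with vehicle, a ratio of 7.95 (6.71 to 9.47).

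SLC7A11 encodes xCT, which brings in cystine in exchange for glutamate, and SLC3A2 encodes the heavy chain that xCT and other light chains need at the membrane. SLC7A11 stood at 74.1 RPKM with SR2211 and 13.1 RPKM with vehicle, at 26.7 FPKM with XY011 and 10.9 FPKM with vehicle, and at 23.5 FPKM with ENZ and 23.3 FPKM with vehicle. Its changes were 2.41, 1.21 and 0.01, and its read ratio with SR2211 was 5.65 (5.29 to 6.04). SLC3A2 stood at 158 RPKM with SR2211 and 66.9 RPKM with vehicle, at 199 FPKM with XY011 and 55.4 FPKM with vehicle, and at 339.7 FPKM with ENZ and 279 FPKM with vehicle. Its changes were 1.23, 1.83 and 0.28, so that the heavy chain had its larger change with XY011 and the cystine light chain with SR2211.

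SLC7A5 (LAT1) and SLC7A1 (CAT1), which carry large neutral and cationic amino acids, passed in no experiment. SLC7A5 had changes of 0.93 with SR2211, 0.89 with XY011 and 0.69 with ENZ, and SLC7A1 of 0.78, 0.77 and 0.16. SLC1A4, an exchanger of alanine, serine and cysteine, stood at 10.9 RPKM with SR2211 and 3.86 RPKM with vehicle, at 5.23 FPKM with XY011 and 3.42 FPKM with vehicle, and at 7.94 FPKM with ENZ and 4.89 FPKM with vehicle. It was called with SR2211 (1.29) and not with XY011 (0.50) or ENZ (0.60). The glutamine carriers SLC1A5, SLC38A1 and SLC38A2 passed nowhere and had changes of 0.25, 0.28 and 0.35 with SR2211, of 0.70, -0.29 and 0.26 with XY011, and of 0.16, -0.34 and -0.53 with ENZ.

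SLC43A1 (LAT3) carries leucine and other large neutral amino acids. Of the 10 transporters it was the 1 that was negative in all 3 experiments. This was not particular to it among amino acid transporters at large. Outside the 10, SLC36A1 (-1.03, -1.33 and -0.34) and SLC1A3 (-1.52, -1.24 and -0.13), among others, were negative with SR2211, XY011 and ENZ too. SLC43A1 stood at 44.4 RPKM with SR2211 and 84.8 RPKM with vehicle, at 48.0 FPKM with XY011 and 111 FPKM with vehicle, and at 65.1 FPKM with ENZ and 167 FPKM with vehicle. Its changes were -0.92, -1.19 and -1.34, and it was called lower with XY011 and with ENZ. The prostate marker KLK2, a known androgen receptor target, was lower in the same 3 experiments, with changes of -2.86 with SR2211, -2.68 with XY011 and -1.97 with ENZ. The 9 luminal prostate markers checked did not all follow KLK2. Of these, 6, 7 and 6 had a negative and 3, 2 and 3 a positive change with SR2211, XY011 and ENZ. Any part of the androgen receptor in the SLC43A1 result was not tested.

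Of 21 other amino acid transporter genes, 11, 12 and 12 were measured. None was called higher with SR2211 or XY011, where 5.10% and 7.58% of all measured genes were. With SR2211, 3 were called lower (SLC1A3, SLC36A4 and SLC36A1), where 5.75% of all measured genes were, with a median of -0.40. After the median gene was set to 0 there were 2, since SLC36A1 (-1.03) loses its call. With XY011, 4 were called lower (SLC43A2, SLC36A1, SLC1A3 and SLC38A7), where 13.2% of all measured genes were, with a median of -0.59. This becomes 3 under that centring, where SLC38A7 (-1.01) loses its call, and 3 under quantile scaling. With ENZ, SLC38A9 alone was called, at 38.0 FPKM with ENZ and 17.1 FPKM with vehicle (1.11). Over all measured genes 3.68% were called higher with ENZ.

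A list of 16 genes held members of the ATF4 response and regulators of it, the eIF2α kinase genes among them. Of these 16, 10 were called higher with SR2211, 11 with XY011 and 1 with ENZ. Over all measured genes 5.10%, 7.58% and 3.68% were, and the medians of the 16 were 1.72, 1.99 and 0.49. ATF4 mRNA stood at 606 RPKM with SR2211 and 216 RPKM with vehicle (1.48), at 1470.5 FPKM with XY011 and 319.7 FPKM with vehicle (2.20), and at 467 FPKM with ENZ and 307 FPKM with vehicle (0.60). CHAC1, a glutathione-degrading enzyme gene, was the 1 called with ENZ, at 38.4 FPKM with ENZ and 17.9 FPKM with vehicle (1.05), and it had 3.73 with SR2211 and 3.47 with XY011. The kinase genes EIF2AK1, EIF2AK2, EIF2AK3 and EIF2AK4 were called in no experiment.

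SR2211 and XY011 were given at the same dose, 5 µM, and for the same time, 48 h, in separate experiments with separate vehicles, and no difference between them was tested. Of the 39 genes, 37 had the same sign with both, and all 20 synthetases did. After the median gene was set to 0, KARS (-0.13 and 0.01) and QARS (-0.01 and 0.12) differed in sign between SR2211 and XY011. Under quantile scaling KARS did (-0.08 and 0.03). Across the 39 genes the 2 sets of changes had a Pearson r of 0.94 and a Spearman rho of 0.92, where 11528 genes measured in both and matched by symbol (11635 by identifier) had 0.79 and 0.76. These are descriptions across genes, which are not replicates. The change was larger in size with SR2211 for 22 of the 39.

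The compounds differed most on SLC7A11, where the change with SR2211 minus that with XY011 was 1.20. It was 0.80 for SLC1A4, 0.75 for PSPH, 0.70 for WARS and 0.61 for FARSB, all more positive with SR2211. It was -0.60 for SLC3A2, -0.58 for PHGDH, -0.45 for SLC1A5 and -0.36 for MTHFD2, all more positive with XY011. The median difference over the 39 genes was 0.17. Of the 5 genes called higher with 1 compound and not the other, MARS, SHMT2 and CBS had small differences, at 0.30, 0.15 and -0.09, and WARS and SLC1A4 larger ones.

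**Figure D4:**
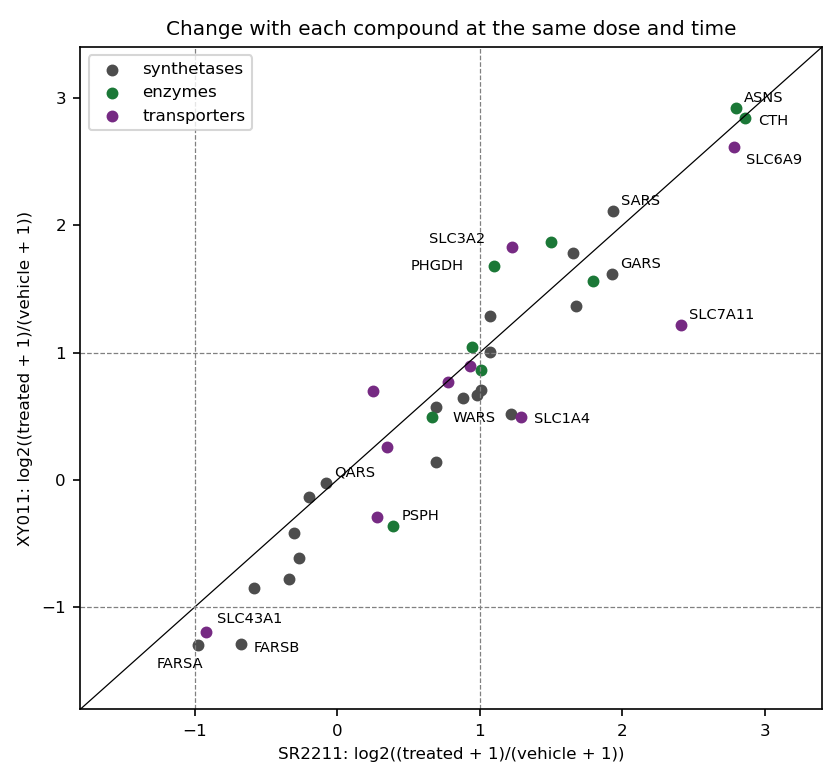
Log2 change with SR2211 (horizontal) against log2 change with XY011 (vertical) for the 39 genes, coloured by role, with the line of equal change and the thresholds of 1 in either direction dashed. Most genes lie near the line, ASNS, CTH and SLC6A9 stand together at the top right, and SLC7A11 (2.41 and 1.21) lies farthest from it.

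With ENZ, at 20 µM and so not at a matched dose, the changes were smaller in size than with SR2211 for 32 genes and than with XY011 for 31. They had the same sign as with SR2211 for 35 of 39 genes, and as with XY011 for 35. The largest positive changes were 1.10 for ASNS, 0.98 for ALDH1L2, 0.95 for PHGDH, 0.94 for SLC6A9 and 0.80 for PSAT1. Apart from ASNS these lay under the threshold. Across the 20 synthetases the Pearson r of the ENZ changes was 0.86 with those of SR2211 and 0.88 with those of XY011, and across the 9 enzymes it was 0.27 and 0.32.

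The vehicle libraries were also set against each other. These differences hold both those between cultures and those between the tables, which differ in unit and in genes listed, and the 2 cannot be told apart. Between the vehicles of XY011 and SR2211, 0 of 38 members at 1 or more in either library were apart by the same rule, where 11.0% of 12502 genes were. The differences ran from -0.64 for CBS to 0.88 for SARS, with a median size of 0.22. The change with SR2211 was larger in size than 0.88 for 24 of the 38, and the change with XY011 for 19. The vehicle values of ENZ lay farther off. Over the vehicle of SR2211 it had 10 members higher and 2 lower, where 33.9% of 12411 genes were apart, and over the vehicle of XY011 14 higher and 2 lower, where 38.7% of 12392 were. On the log2 scale MARS was 2.99 and 2.97 higher in it, so levels of the ENZ tables were compared within that experiment alone.

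Counting error in the SR2211 pair was small beside these changes. Whole reads were recovered for all 39 genes, from 71 to 10249 with SR2211 (median 2197) and from 22 to 5974 with vehicle (median 1544), and 38 of the 39 ratio intervals excluded 1. By name, 13 members have pseudogenes in GENCODE 29, among them MTHFD2 with 7 and ASNS and PSAT1 with 4 each, and 5 (CARS, DARS, FARSA, GARS and SLC7A11) have an antisense or divergent transcript. How shared reads were placed, and whether strand was used, is unknown, which leaves the values of these genes uncertain to that extent.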

How the data were processed

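RNA-seq of 6 C4-2B libraries, 1 per group in 3 experiments, was analysed. Per the labels' protocols, poly-adenylated RNA went into TruSeq libraries. The authors deposited RPKM values for the SR2211 experiment and FPKM values for the XY011 experiment (rounded to 2 decimals) and the ENZ experiment. BWA, Bowtie, Cufflinks, Cuffdiff, GRCh37 and hg19 are named, per the submitters' processing notes. For their roles and versions, the annotation and strandedness, the answer is not given in the sources used here. Genes without reads stood at 0.01 and 0.001 in the SR2211 and XY011 tables. The ENZ table held 730 genes at 0 with ENZ and 0 genes at 0 with vehicle. A gene at 0 with vehicle is thus not counted in the ENZ shares over all genes, whatever its value with ENZ.

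Small RNA genes were left out, genes at 1 or more in either library of a pair were kept, and repeated ENZ symbols (96 lines) were summed. The log2 change used a pseudocount of 1 and a threshold of 1. DDIT3 was matched by identifier, since the SR2211 table gives it as DDIT3/CHOP. Reads of the SR2211 pair were recovered from values of microRNA genes (35 genes and 97.1% whole with SR2211, 26 genes and 100% whole with vehicle, within 0.01 read). The smallest whole numbers with a whole gene length were used. True numbers may be multiples of these, which would make the exact (Clopper-Pearson) 95% intervals too wide. Each member called in any experiment was given in full, and of other lists at most the 3 highest and lowest changes. ATF4 and its kinases, KLK2, COL1A1, and CARS2 and SLC38A9 with ENZ were named after their values were seen. The members and lists were chosen with earlier results of these data known. Some genes and sequences of these lists are not reported here. The scripts were tested on simulated data. Alternatives were a pseudocount of 0.1, no filter, a floor of 5, centring on the median gene, quantile scaling, and a 1.5-fold threshold. Python 3.11.15, pandas 2.3.3, scipy 1.17.1 and matplotlib 3.10.9 were used.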

Additional observations from a re-analysis of the deposited data

How the results depend on the processing

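No setting turned the direction of a called member, and none of the alternatives ended a call among the 39 genes. Most of them could not have ended 1. Leaving out the filter, a smaller pseudocount and a lower threshold can only keep or add calls. Every called member stood above the floor of 5 in at least 1 library of its pair. Centring raised all changes, so it could end calls on the lower side alone. Quantile scaling could end calls on either side. Where all experiments are named, order is SR2211, XY011, ENZ. The genes called higher were 18, 15 and 1; they were 19, 16 and 2 with a pseudocount of 0.1, 20, 17 and 2 after centring, and 21, 16 and 2 after quantile scaling. The second ENZ gene under these 3 settings was the low ALDH1L2, so that 2 of its enzymes passed. At a 1.5-fold threshold, 26, 22 and 10 were higher; for ENZ these were 2 synthetases, 5 enzymes and 3 transporters. There, 4 genes were lower with SR2211 and 6 with XY011, and 6 transporters were higher with XY011. Over all genes, a pseudocount of 0.1 gave 965 higher and 1053 lower with SR2211 and 1313 and 1457 with ENZ, and a floor of 5 gave 462 and 528 with ENZ. The 1.5-fold threshold gave 1676 and 2093, 2145 and 3508, and 2238 and 2395. Over all genes XY011 gave 36.5% of its calls on the higher side, 51.1% after centring and 49.4% after quantile scaling. SR2211 gave 47.0%, 56.1% and 52.5%. The larger side thus turned with SR2211 under both scalings and with XY011 under centring, but not with XY011 under quantile scaling. No paired analysis was possible because each group is 1 library, and for the same reason no library could be left out. Depth is known for the SR2211 pair alone, and the spread between cultures is not known for any member.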
